A study of Mus musculus with 4 samples.

Results

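The S100 genes encode small calcium-binding proteins, and 8 of them (S100a1, S100a4, S100a6, S100a8, S100a9, S100a10, S100a11 and S100a13) were followed here across the CD45+ immune cells of control skins and skin tumors. They were taken by name from the 17 S100 genes among the 31053 genes of the count files, and all 8 were present in all 4 libraries. No S100 gene took part in assigning cells to a class.

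S100 proteins carry paired EF-hand motifs, the helix-loop-helix folds that bind calcium, and most act as dimers that grip a partner protein once calcium is bound. S100A8 and S100A9 form calprotectin, a major cytosolic protein of neutrophils that binds zinc and manganese and, once released, acts as an alarm signal through Toll-like receptor 4 and the receptor RAGE. S100A4 binds non-muscle myosin and is known from motile and memory-type leukocytes and from fibroblasts. S100A6 binds the calcyclin-binding protein and annexins, S100A10 does not respond to calcium and forms a complex with annexin A2 at the membrane, and S100A11 binds annexin A1. S100A1 is best known from heart muscle, where it binds calcium-handling proteins, and S100A13 takes part in the non-classical release of fibroblast growth factor 1.

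The study asked how skin immune cells respond as a tumor grows. Skin tumors were grown in C57BL/6 mice of 8 to 10 weeks by subcutaneous injection of the 2323 line in the flank and were collected after 2 weeks, and control skins came from C57 mice that received no injection. The 2323 line is 1 line, established from a graft of a tumor of an engineered mouse model in which a keratin 14-driven, doxycycline-dependent Cre acts in keratinocytes and deletes P53. The hosts of both groups were C57/BL6 by label, the methods name female and male mice, and no label gives the sex or number of animals behind a library. Live CD45+ cells were sorted after collagenase digestion, which removes most tumor cells, so the tumor genotype was not checked here. Each group had 2 libraries, called control skin 1 and 2 and skin tumor 1 and 2. The methods name 2 tumors and 2 control skins, so p-values measure the spread between the tissues of each group, and whether these came from separate mice is not stated.

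The libraries held 3499, 3862, 5176 and 2258 cell barcodes, with 34893543 to 73904272 UMIs (unique molecular identifiers, each counting 1 captured mRNA molecule) per library. Quality filters kept 12848 of 14795 cells, and marker genes placed 8234 of them in 15 classes. Pairs of libraries shared 1 to 7 barcodes. A test needed at least 10 cells in every library, which left 10 classes: neutrophils, monocyte-like cells, macrophages, conventional dendritic cells of type 2 and type 1 (cDC2 and cDC1), mast cells, CD8 T cells, CD4 T cells, regulatory T cells (Tregs) and natural killer (NK) cells. Migratory dendritic cells (mDC), Langerhans cells, dendritic epidermal T cells (DETC), dermal gamma delta T cells and type 2 innate lymphoid cells (ILC2) had too few cells in at least 1 library. The smallest tested groups were cDC1 of skin tumor 2, with 11 cells, and mast cells of control skin 1, with 16 cells. Csf3r, which the neutrophil gate requires, stood at 6.29 to 9.99 UMIs per 10000 in neutrophils against at most 0.991 in the other tested classes. Ncr1, a gene of the NK gate, stood at 1.43 to 2.13 in NK cells. Both take part in the gates, so these levels describe the classes and do not check their names.

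All 8 genes lie on mouse chromosome 3 (GRCm38), in 2 neighbourhoods of the S100 cluster. S100a1 (chr3:90511034-90514392, minus strand) and S100a13 (chr3:90514435-90524581, plus strand) stand back to back with 42 bases between them. S100a4 (chr3:90603771-90606045) and S100a6 (chr3:90612882-90624181) follow each other on the plus strand with 6836 bases between them. S100a8 (chr3:90668978-90670035, plus strand) and S100a9 (chr3:90692632-90695721, minus strand) lie 22596 bases apart and face each other. S100a11 (chr3:93520488-93526287) and S100a10 (chr3:93555080-93564643) lie further along on the plus strand, 28792 bases apart.

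The sequences just upstream of S100a4, S100a6, S100a8 and S100a9 are shown because the levels of these 4 genes carry the main results: S100a4 and S100a6 lay lower in skin tumors in most classes, and S100a8 and S100a9 lay mainly in neutrophils. They are RefSeq's 250 bases before the start of the gene (GRCm38.p6), and 7 of the 8 genes had an entry, all but S100a10. Bases that the GENCODE annotation places inside the gene are left out, 12 for S100a6 and 93 for S100a8. Capitals mark matches, on either strand, to any of 6 short motifs that are spelled out after the sequences. Positions of matches are counted from the RefSeq start, which in S100a8 lies 93 bases inside the GENCODE gene.
S100a4, chr3:90603520-90603769, plus strand: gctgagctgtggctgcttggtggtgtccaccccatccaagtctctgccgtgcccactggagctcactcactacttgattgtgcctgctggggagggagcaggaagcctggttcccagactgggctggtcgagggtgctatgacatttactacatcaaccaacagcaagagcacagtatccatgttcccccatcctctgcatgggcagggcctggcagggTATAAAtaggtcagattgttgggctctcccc
S100a6, chr3:90612644-90612881, plus strand: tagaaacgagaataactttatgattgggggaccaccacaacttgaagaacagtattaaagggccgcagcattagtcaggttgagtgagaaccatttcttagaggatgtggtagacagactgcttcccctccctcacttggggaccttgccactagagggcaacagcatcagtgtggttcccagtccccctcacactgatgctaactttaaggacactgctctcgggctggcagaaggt
S100a8, chr3:90668821-90668977, plus strand: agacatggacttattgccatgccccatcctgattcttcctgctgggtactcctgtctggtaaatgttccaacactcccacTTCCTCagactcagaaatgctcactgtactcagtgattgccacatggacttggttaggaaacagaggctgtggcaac
S100a9, chr3:90695722-90695971, minus strand: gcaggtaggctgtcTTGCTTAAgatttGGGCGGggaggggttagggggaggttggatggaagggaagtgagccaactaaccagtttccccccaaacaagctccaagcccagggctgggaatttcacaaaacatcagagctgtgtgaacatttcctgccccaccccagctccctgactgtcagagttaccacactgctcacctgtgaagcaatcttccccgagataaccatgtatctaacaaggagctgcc
The TATA box, searched as TATAAA, began at position -31 from the start of S100a4 and at -30 from that of S100a8, the latter in the stretch not shown, and 12.4% of all 32851 promoter windows of this length held it. The core of a PU.1 site, searched as GAGGAA and found in 23.3% of windows, lay on the opposite strand of S100a8 at -170 and, not shown, at -36. The C/EBP letters, searched as TTGCNNAA and found in 9.56% of windows, began at -236 in S100a9. The GC box, searched as GGGCGG and found in 32.7% of windows, began at -223 in the same promoter. Neither the AP-1 site, searched as TGANTCA (6.75% of windows), nor the E-box, searched as CACGTG (6.02% of windows), was found in the 4 promoters, and S100a6 held none of the 6 motifs. A match describes letters only and says nothing about binding in these cells.

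Levels are given as UMIs of the gene per 10000 UMIs of the class in a library, and they are compared between classes and groups, not between genes. The order of classes was read where both libraries of a group had at least 10 cells, 14 classes in control skins and 11 in skin tumors. In control skins this leaves out mDC, whose 12 cells in control skin 1 had S100a4 at 24.7, S100a6 at 8.52 and S100a10 at 1.18, beyond the ends of the orders given next. Among the 14 classes, S100a4 was highest in dermal gamma delta T cells (23.0 ± 1.05, SD, n = 2 libraries) and cDC2 (21.3 ± 0.37), and lowest in mast cells (2.95 ± 1.40). S100a6 was highest in mast cells (27.2 ± 1.67), above cDC2 (24.6 ± 0.34), and lowest in ILC2 (9.09 ± 0.18). Mast cells thus stood first for S100a6 and last for S100a4. S100a10 was highest in cDC2 (10.2 ± 0.50) and lowest in neutrophils (2.03 ± 1.46), whereas S100a11 was highest in cDC1 (16.2 ± 1.52) and neutrophils (15.7 ± 1.97), whose libraries overlapped. S100a1 stayed under 1 in every class and was highest in cDC1, Langerhans cells, macrophages and cDC2, the first 4 in the order, with overlapping neighbours. S100a13 was highest in mast cells (2.22 ± 0.98) and CD4 T cells (1.96 ± 0.04), and lowest in neutrophils (0.38 ± 0.21).

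**Figure D1:**
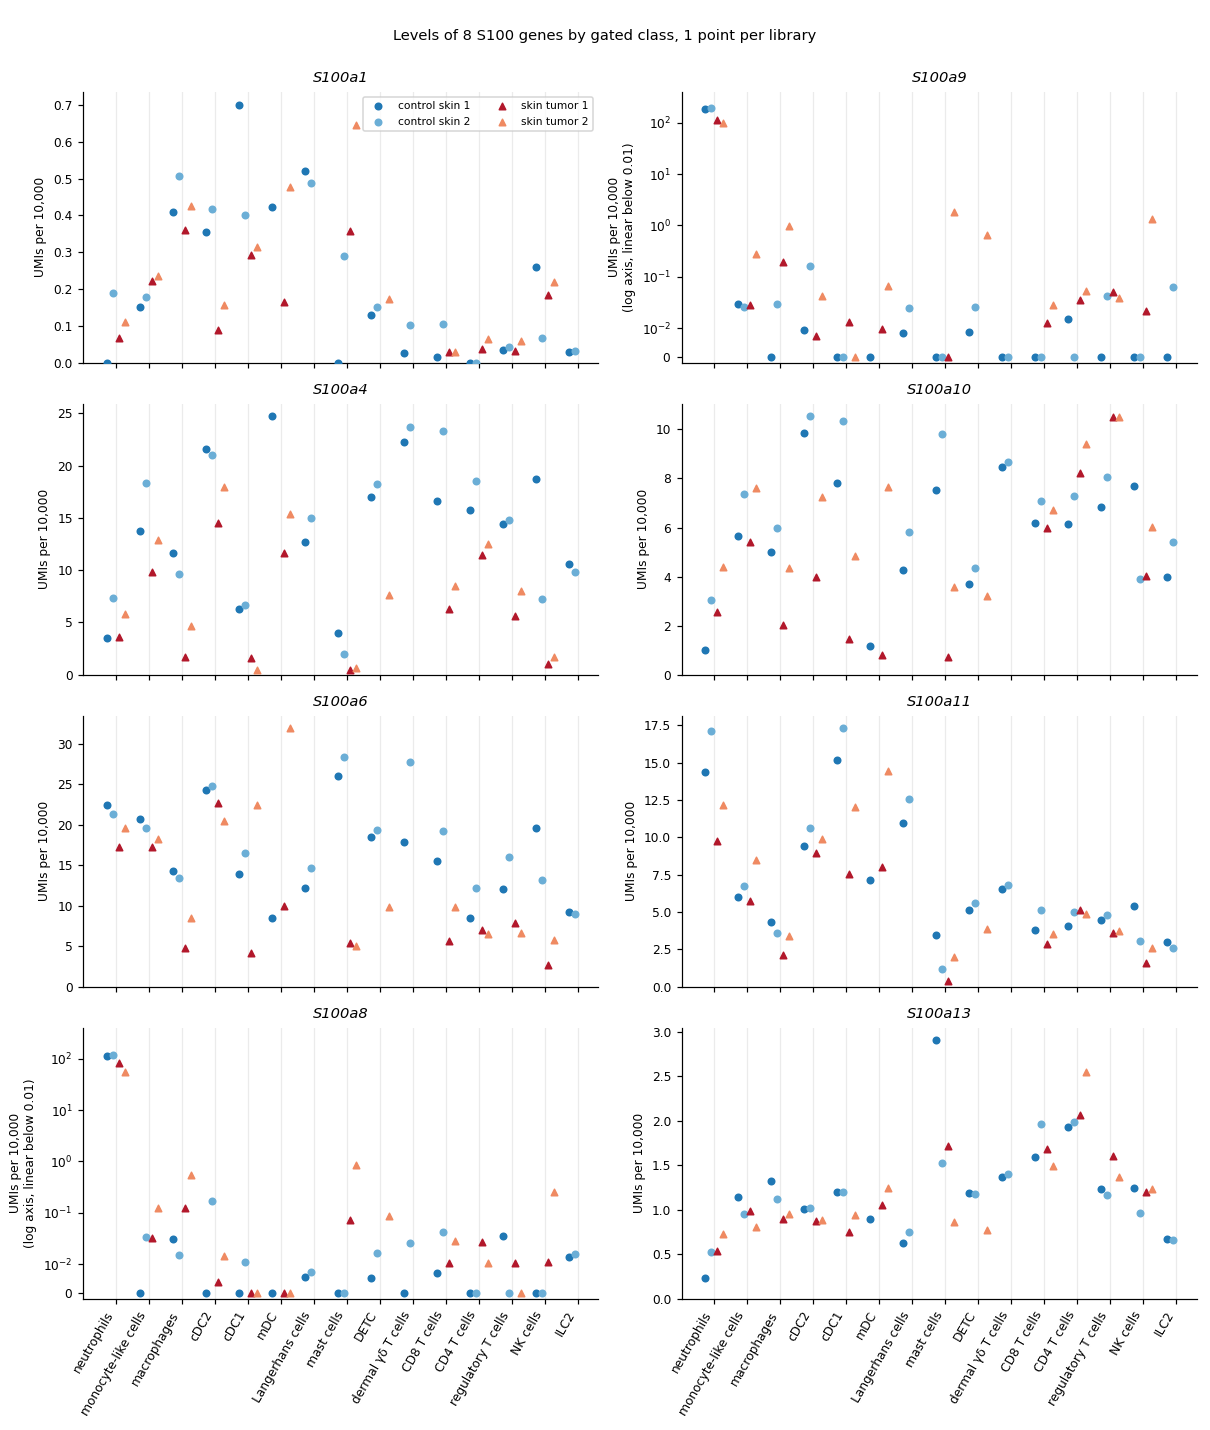
Levels of the 8 S100 genes (vertical axis, UMIs of the gene per 10,000 UMIs of the class; a log axis for S100a8 and S100a9, linear below 0.01) in 15 gated classes, 1 point per library with at least 10 cells of the class, circles for control skins and triangles for skin tumors. S100a8 and S100a9 are above 50 in neutrophils and below 2 in every other class, and the triangles of S100a4 and S100a6 lie below the circles in 9 of 10 tested classes each.

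Across the 10 tested classes there were 80 pairs of a member and a class, of which 59 passed the filter on low counts. The 21 that did not were S100a8 and S100a9 outside neutrophils and macrophages, and S100a1 in neutrophils, mast cells and the T cell classes. Of the 59, 7 were lower in skin tumors at an adjusted p under 0.05 (edgeR quasi-likelihood test, Benjamini-Hochberg over all genes of a class), and none was higher. These 7 pairs are 11.9% of those tested, against a background of 2.15% of all 69630 tests of a gene in a class called lower and 2.06% called higher. S100a4 and S100a6 gave 3 of these calls each. The members were chosen with earlier results of these data known, and all pairs share the same 4 libraries. The shares of pairs given here are therefore descriptions. At an unadjusted p under 0.05, 30 pairs were lower and 2 higher, together 54.2% of pairs against 18.8% of all tests. DESeq2 called 12 lower and 1 higher, with 4.01% of its tests over all genes called. The count rested on the libraries in use, since it rose to 25 lower and 2 higher without skin tumor 2, and to 9 lower and 4 higher without skin tumor 1. The calls over all genes rose as well, from 4.21% of tests in either direction to 10.4% without skin tumor 2 and 6.22% without skin tumor 1. Both skin tumor libraries lay below both control skins in 35 of the 59 pairs (59.3%, background 18.7%) and above them in 8 (13.6%, background 33.4%). The median log2 fold change over the 59 pairs was -0.59, beside 0.03 over all genes and classes. With 2 libraries against 2, an exact permutation test of a single value cannot go below p = 0.333.

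**Figure D2:**
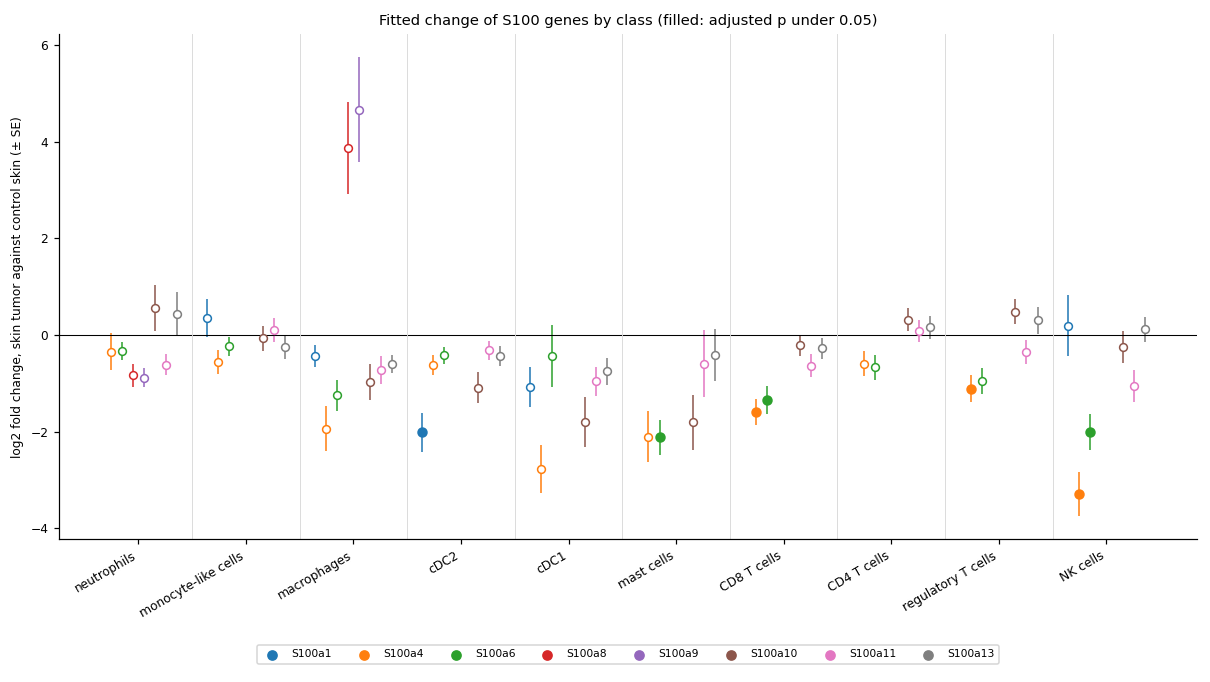
Fitted log2 fold change of each S100 gene, skin tumor against control skin, with its standard error (vertical bar), in the 10 tested classes; filled points have an adjusted p under 0.05. The 7 filled points lie between -3.29 and -1.12, and the points of S100a8 and S100a9 in macrophages stand highest, at 3.87 and 4.66, unfilled.

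S100a4, the myosin-binding member, was lower in skin tumors in CD8 T cells, Tregs and NK cells. S100a4 in both skin tumors lay below both control skins in 9 of 10 classes (18.7% of tests over all genes), neutrophils being the exception. In CD8 T cells, the lymphocytes that kill target cells, its level was 16.6 and 23.3 in the control skins against 6.25 and 8.44 in the skin tumors. The groups were well apart, with a log2 fold change of -1.60 ± 0.27 (SE, edgeR adjusted p = 0.0050, against 5.88% of genes called lower in CD8 T cells). This call was kept under all 14 alternative settings. In Tregs, which restrain other T cells, S100a4 was 14.4 and 14.8 in control skins against 5.59 and 7.97 in skin tumors, a log2 fold change of -1.12 ± 0.28 (adjusted p = 0.043, edgeR; background 1.56%). The Treg call was lost without control skin 1 (adjusted p = 0.297), without control skin 2 (0.311) and without skin tumor 1 (0.0579), under the stricter gate (0.0563) and the looser gate (0.0527), and without cycling cells (0.0772), and it was kept in 8 of 14 alternatives. Cycling Tregs made up 36.7% and 21.4% of the class in control skins against 51.6% and 37.7% in skin tumors, and their part in the result was not tested.

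In NK cells the change of S100a4 was largest among the 59 pairs on the side of lower values. The control skins stood at 18.7 and 7.23, far from each other, and the skin tumors at 1.04 and 1.69. The log2 fold change was -3.29 ± 0.45 (edgeR adjusted p = 0.010, background 0.971%). Among NK cells of the control skins, 50.0% and 21.7% had a UMI of S100a4 after each cell was thinned to 1000 UMIs, against 4.81% and 10.5% in skin tumors, with exact 95% intervals of 30.6 to 69.4%, 7.46 to 43.7%, 1.58 to 10.9% and 3.96 to 21.5%. At full depth these shares were 78.6% and 60.9% against 16.3% and 28.1%, with median depths of 12660 and 13901 UMIs against 8130 and 8016. Granzyme A (Gzma), a killing enzyme of NK cells, moved the other way, from 11.7 and 5.93 to 24.2 and 38.9. Gzma is a gene of the NK gate, so the gate takes part in its level. Trdc of gamma delta T cells stood at 0.18 to 0.49 in all 4 libraries. Whether a different mix of NK cells took part in the result was not tested. The call was lost under a stricter NK gate (adjusted p = 0.149) and without cycling cells (0.134).

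The remaining classes gave the following levels of S100a4. Macrophages, the most numerous class in skin tumors, had 11.6 and 9.60 in control skins against 1.65 and 4.61 in skin tumors (log2 fold change -1.94 ± 0.47, edgeR adjusted p = 0.116). For cDC1, which present antigen to CD8 T cells, the values were 6.25 and 6.67 against 1.58 and 0.47 (-2.78 ± 0.50, adjusted p = 0.0513). Mast cells had 3.94 and 1.96 against 0.43 and 0.65 (-2.11 ± 0.53, edgeR adjusted p = 0.0527). There S100a4 passed the filter on low counts through the control skins, and 35.4% of genes lay below both control skins in both skin tumors. None of these 3 passed the threshold, though their libraries did not overlap. Smaller separations were seen in monocyte-like cells (13.7 and 18.4 against 9.77 and 12.9, -0.56 ± 0.25), CD4 T cells (15.8 and 18.5 against 11.4 and 12.5, -0.59 ± 0.26) and cDC2 (21.6 and 21.0 against 14.5 and 17.98, -0.62 ± 0.21). Their edgeR adjusted p-values were 0.526, 0.192 and 0.106 in this order, and none passed the threshold. In neutrophils the groups overlapped, with 3.45 and 7.35 against 3.57 and 5.78. The order of classes moved accordingly: in skin tumors cDC2 (16.2 ± 2.47) and mDC (13.5 ± 2.66) led and mast cells were again last (0.54 ± 0.15).

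S100a6, the calcyclin, was lower in skin tumors in mast cells, CD8 T cells and NK cells. Its skin tumor libraries lay below both control skins in 9 of 10 classes, all but cDC1, against 18.7% of tests over all genes. Mast cells, which store histamine and proteases, showed the sharpest separation. Their level of S100a6 was 26.1 and 28.4 in control skins against 5.35 and 5.03 in skin tumors. This is a log2 fold change of -2.12 ± 0.36 (edgeR adjusted p = 0.011, against 1.34% of genes called lower in mast cells, where 35.4% of genes lay below the control skins in both skin tumors). In the order of classes, mast cells went from the first of 14 in control skins to the tenth of 11 in skin tumors. The value rests on 16 and 35 cells against 30 and 25, and the call was lost without control skin 2 (adjusted p = 0.0968), under a looser gate (0.0569) and without cycling cells (0.0620).

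For S100a6 in CD8 T cells the levels were 15.6 and 19.2 in control skins against 5.61 and 9.78 in skin tumors (log2 fold change -1.34 ± 0.29, edgeR adjusted p = 0.017). In NK cells they were 19.6 and 13.2 against 2.63 and 5.78 (-2.003 ± 0.37, adjusted p = 0.029). Both groups were separate in both classes. The share of cycling CD8 T cells (those with a UMI of Mki67 or Top2a) was 43.4% and 41.9% in control skins against 70.3% and 37.5% in skin tumors, and without cycling cells the CD8 value of S100a6 had an adjusted p of 0.0835 and the NK value 0.116. The CD8 call was also lost without skin tumor 1 (0.122), and the NK call under the stricter gate (0.118). Transcripts of other cell types differed between the groups in both directions. The Langerhans cell gene Cd207 stood at 0.13 to 0.34 per 10000 in CD8, CD4, Treg and NK cells of control skins. In those of skin tumors it stood at 0. C1qa of macrophages went the other way in these classes, with at most 0.125 in control skins and 0.135 to 0.404 in skin tumors. The part of either gene in the result was not tested.

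Tregs had S100a6 at 12.01 and 16.02 against 7.82 and 6.68 (-0.96 ± 0.28, edgeR adjusted p = 0.077), and CD4 T cells at 8.52 and 12.1 against 7.01 and 6.54 (-0.67 ± 0.25, adjusted p = 0.130). Macrophages had 14.3 and 13.4 against 4.72 and 8.51 (-1.25 ± 0.32, adjusted p = 0.129). These fell short of the threshold with groups that did not overlap. Among the tested classes where S100a6 was high, mast cells changed most, and changes were smaller in cDC2, neutrophils and monocyte-like cells. In cDC2 the levels were 24.3 and 24.8 in control skins against 22.7 and 20.5 in skin tumors. In neutrophils they were 22.4 and 21.4 against 17.3 and 19.5, and in monocyte-like cells 20.7 and 19.6 against 17.3 and 18.2. In cDC1 the skin tumors disagreed, at 4.13 and 22.5, on either side of the control skins (13.9 and 16.5), and the value of 22.5 came from 11 cells. Fibroblast markers stood at 2.65 per 10000 in these 11 cells and at 0.022 or less in cDC1 of the other libraries, and their part in the value was not tested. The lower levels in the classes did not extend to all kept cells, where S100a6 was 15.2 and 16.5 in control skins against 8.03 and 16.9 in skin tumors. In skin tumor 2, 62.2% of the S100a6 UMIs lay outside the classes, and cells with no class had 13.4 and 10.99 in control skins against 17.5 and 44.9 in skin tumors.

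**Figure D3:**
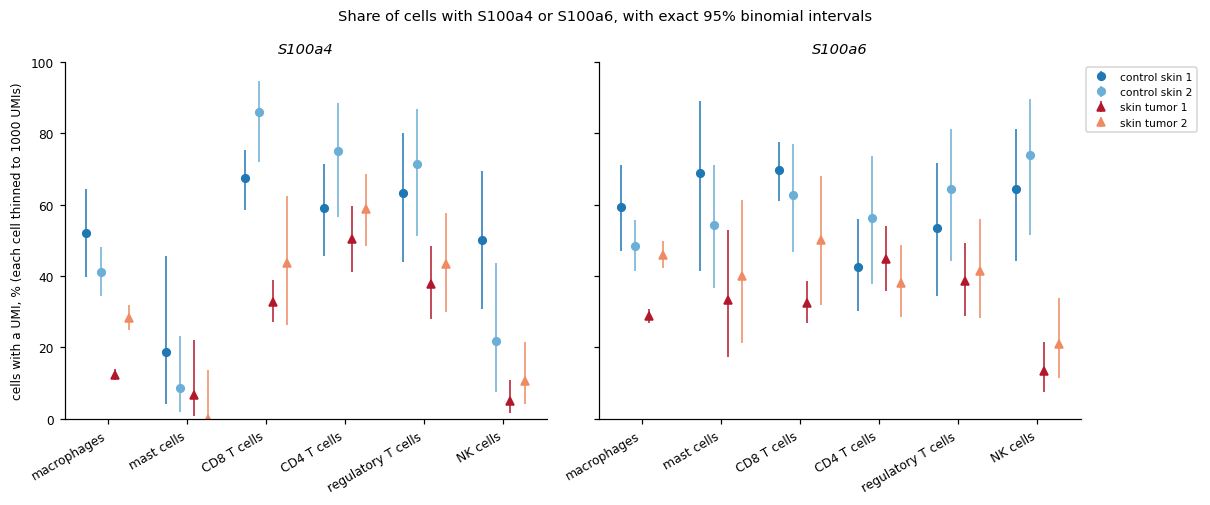
Percent of cells with at least 1 UMI of S100a4 (left) or S100a6 (right) in 6 classes after each cell was thinned to 1000 UMIs, 1 point per library with exact 95% binomial intervals that cover counting error only; circles are control skins and triangles skin tumors. For S100a4 in CD8 T cells the shares were 67.4% and 86.0% in control skins against 32.8% and 43.8% in skin tumors.

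The shares of cells followed the levels in CD8 T cells. At 1000 UMIs per cell, S100a4 was seen in 67.4% and 86.0% of control CD8 T cells and in 32.8% and 43.8% of those in skin tumors, and at full depth in 96.1% and 97.7% against 71.1% and 87.5%. For S100a6 the thinned shares were 69.8% and 62.8% against 32.4% and 50.0%. In macrophages, S100a4 was seen in 52.2% and 41.2% of thinned cells in control skins against in 12.3% and 28.3% in skin tumors. No tested class lacked S100a4 or S100a6, so no class gives a background for these shares.

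The annexin-binding members S100a10 and S100a11 were not called in any class. S100a10, the partner of annexin A2, lay above both control skins in both skin tumors in 2 of 10 classes and below them in 4. Over all genes, 33.4% and 18.7% of tests had these orders. In Tregs it was 6.85 and 8.07 in control skins against 10.5 in each skin tumor (0.48 ± 0.26, edgeR adjusted p = 0.373), and in CD4 T cells 6.13 and 7.30 against 8.22 and 9.41 (0.32 ± 0.24, adjusted p = 0.467), so that these 2 classes stood first and second in skin tumors. The reverse order held in cDC2 (9.86 and 10.6 against 3.97 and 7.24; -1.09 ± 0.31, adjusted p = 0.073), cDC1 (7.82 and 10.3 against 1.44 and 4.83; -1.80 ± 0.52, adjusted p = 0.122), mast cells (7.54 and 9.81 against 0.71 and 3.59; -1.80 ± 0.57, adjusted p = 0.131) and macrophages (5.00 and 5.98 against 2.04 and 4.36; -0.97 ± 0.37, adjusted p = 0.290). When the tumor change of a class was tested against that of macrophages, S100a10 in Tregs differed by 1.53 ± 0.53 (adjusted p = 0.329) and in CD4 T cells by 1.36 ± 0.53 (adjusted p = 0.229). The difference between classes therefore did not pass the test. In mast cells, 35.4% of genes lay below both control skins in both skin tumors. There S100a10 of skin tumor 1 lay under the count that the filter asks for, so the control skins took part in passing it.

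S100a11 lay lower in both skin tumors in 6 of 10 classes, an order found in 18.7% of tests over all genes. In NK cells it was 5.39 and 3.05 against 1.61 and 2.58 (-1.06 ± 0.32, edgeR adjusted p = 0.150), and in cDC1 15.2 and 17.3 against 7.57 and 12.03 (-0.96 ± 0.29, adjusted p = 0.131). In neutrophils the values were 14.4 and 17.1 against 9.75 and 12.2 (-0.62 ± 0.22, adjusted p = 0.409). In CD4 T cells and monocyte-like cells the groups overlapped, with fitted changes of 0.08 and 0.10.

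S100a1 was called once, in cDC2, the dendritic cells that present antigen to CD4 T cells. Its level was 0.35 and 0.42 in control skins against 0.09 and 0.16 in skin tumors, separate groups at a low level, and the log2 fold change was -2.02 ± 0.40 (edgeR adjusted p = 0.026, against 5.21% of genes called lower in cDC2). That call was lost without control skin 1 (adjusted p = 0.0982), control skin 2 (0.0818) or skin tumor 1 (0.0794), and under the stricter gate (0.0779). In cDC1 S100a1 was 0.70 and 0.40 against 0.29 and 0.32 (-1.08 ± 0.41, adjusted p = 0.186), and in macrophages 0.41 and 0.51 against 0.36 and 0.43, overlapping. S100a13, which stands back to back with S100a1 on the chromosome, had fitted changes between -0.75 and 0.44 over the 10 classes, and no adjusted p under 0.183. Its skin tumor libraries lay below the control skins in macrophages, cDC2 and cDC1 and above them in neutrophils, CD4 T cells and Tregs. Over all genes, both skin tumors lay below both control skins in 18.7% of tests and above them in 33.4%. No pattern of S100a13 between classes is therefore read from these orders.

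S100a8 and S100a9, the calprotectin genes, lay mainly in neutrophils in both groups. In neutrophils S100a8 was 114 and 115 in control skins against 82.0 and 53.9 in skin tumors. The tumor values were lower and further from each other (log2 fold change -0.84 ± 0.24, edgeR adjusted p = 0.365 with no gene called lower in neutrophils, a background of 0%). S100a9 was 180 and 188 against 114 and 97.9 (-0.88 ± 0.19, adjusted p = 0.280), likewise without overlap. CD8 and CD4 T cells, which should lack both genes, gave at most 0.053 per 10000 in any library. The neutrophils numbered 21, 77, 155 and 125 cells.

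The share of neutrophils with at least 10 S100a9 UMIs was 71.4% and 77.9% in control skins against 69.7% and 72.8% in skin tumors, which overlap. Cells with so many S100a9 UMIs were shallow, with medians of 2995 to 4297 UMIs in the 4 libraries. The other cells of the neutrophil gate had medians of 8284 to 12535, and whether they were neutrophils was not tested. The shallow cells held more UMIs of the neutrophil marker genes, with medians of 34, 41, 40 and 23 by library, controls first. Medians of the other cells of the gate were 11.5, 9, 7 and 9. The levels of every member in the neutrophil class, not only of S100a8 and S100a9, pool both kinds of cell. How far this mix shaped the lower tumor levels was not tested. After thinning to 1000 UMIs, 76.2% and 85.7% of control neutrophils and 72.3% and 75.2% of tumor neutrophils had an S100a9 UMI, where CD8 T cells had 0% in all 4 libraries (129, 43, 256 and 32 cells). Unthinned, the neutrophil shares were 90.5% and 89.6% against 73.5% and 80.0%, and the CD8 T cell shares 0%, 0%, 1.95% and 3.13%. The median depth of neutrophils was 3464 to 4477 UMIs and that of CD8 T cells 9506 to 12525. The median S100a9 level of a neutrophil was 144 and 228 per 10000 in control skins against 97.6 and 118 in skin tumors. Cxcr2, a chemokine receptor of mature neutrophils, stood at 2.76, 4.03, 3.16 and 1.45 in the same order, and its part in the S100a9 values was not tested.

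**Figure D4:**
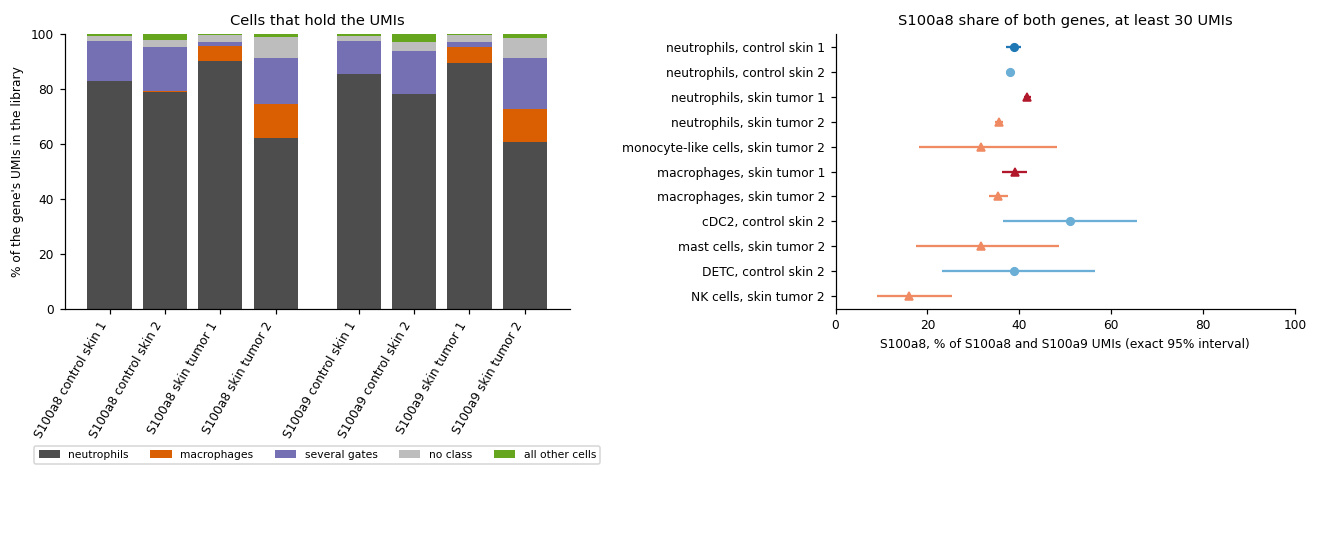
Left, the percent of all S100a8 or S100a9 UMIs of a library (kept cells) found in neutrophils, macrophages, cells that met several gates, cells with no class and all other cells; right, S100a8 as a percent of S100a8 and S100a9 UMIs with exact 95% intervals, for classes and libraries with at least 30 UMIs of both. Neutrophils hold 60.8 to 90.4% of the UMIs of either gene. The macrophages of each skin tumor have an S100a8 share within 3 percentage points of the neutrophils of the same library. In skin tumor 1 the neutrophil share lies just outside the macrophage interval.

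Neutrophils held 82.9%, 79.1%, 90.4% and 62.2% of the S100a8 UMIs of control skin 1, control skin 2, skin tumor 1 and skin tumor 2, and 85.5%, 78.2%, 89.5% and 60.8% of the S100a9 UMIs. Macrophages gave a small signal that lay higher in both skin tumors, an order found in 40% of the genes tested in this class. S100a8 was 0.03 and 0.02 against 0.12 and 0.55 (log2 fold change 3.87 ± 0.95, edgeR adjusted p = 0.118), and S100a9 was 0 and 0.03 against 0.19 and 1.00 (4.66 ± 1.09, adjusted p = 0.104). The filter was passed through the skin tumors, where both genes were higher. Few cells made this signal: in skin tumor 1, 4 of 2067 macrophages held 93.5% of the S100a9 UMIs, and in skin tumor 2, 20 of 693 held 95.9%. Those cells had a median of 56 and 29.5 UMIs of the neutrophil marker genes, against 2 and 3 in the other macrophages. The S100a8 share of both genes was 39.0% (exact 95% interval 36.3 to 41.7%) in macrophages of skin tumor 1. In neutrophils of that library it was 41.8%, just outside this interval, and it was 35.5% in both classes of skin tumor 2.

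A few cells also held most of the UMIs in some other classes. In NK cells of skin tumor 2, where S100a9 was 1.35 per 10000, a single cell held 98.6% of 74 UMIs. This cell had 21 UMIs of the neutrophil markers, against a median of 0 in the other NK cells. The S100a8 share of both genes was 15.9% (exact 95% interval 8.98 to 25.2%), against 35.5% in the neutrophils of that library. That share rests mainly on a single cell, so its interval covers counting error and not the spread between cells. In mast cells of skin tumor 2, the 2 cells with at least 10 S100a9 UMIs had a median of 4 neutrophil marker UMIs against 7 in the others. Mast cells of every library held the summed neutrophil markers at 19.4 to 51.2 per 10000, with Csf3r at 0.072 or less. This count therefore cannot tell neutrophil transcripts apart in mast cells. In cDC2 of control skin 2, a single cell held 23 of 25 S100a8 UMIs and 22 of 24 S100a9 UMIs, and this cell had 21 UMIs of the neutrophil markers. When the tumor change of each class was tested against that of macrophages, 2 of 72 pairs passed (edgeR, adjusted p under 0.05; 0.585% of all such tests did, and 0.672% of those in cDC2). They were S100a8 in cDC2 (-7.43 ± 1.57 on the log2 scale, edgeR adjusted p = 0.023) and S100a9 in cDC2 (-6.85 ± 1.60, adjusted p = 0.041). Both rest on that cell of control skin 2 and on the few macrophages described above. This fit filtered each gene over all classes at once, so the 72 pairs include pairs left out of the main test for low counts. S100a8 and S100a9 in cDC2 are such pairs. Neither of these 2 pairs was called without control skin 1 or without control skin 2, since no pair was called in these settings.

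Further genes were read from 4 lists: other S100 genes, receptors and partners of S100A8 and S100A9, intracellular S100 partners, and neutrophil granule genes. The other S100 genes of the list (S100a3, S100a5, S100a7a, S100a14, S100a16, S100b, S100g and S100z) were all present in the files, but none passed the filter in a tested class. Of the receptors and receptor partners of S100A8 and S100A9, 55 tests of a gene in a class gave 5 lower and 3 higher, where 2.15% and 2.06% of all tests were called (median log2 fold change 0.03, as over all genes). By class, the share of genes called lower was 5.88% in CD8 T cells, 4.19% in CD4 T cells, 1.56% in Tregs, 0.535% in macrophages and 0.0809% in monocyte-like cells, and the share called higher was 4.64% in CD8 T cells, 5.26% in CD4 T cells and 1.16% in NK cells. Emb, which encodes embigin, an S100A9 receptor, was 15.3 and 19.2 in control CD8 T cells and 2.55 and 6.34 in those of skin tumors (-2.15 ± 0.38, edgeR adjusted p = 0.0069). It also fell in CD4 T cells (17.8 and 15.5 against 4.99 and 5.92; adjusted p = 0.0037) and Tregs (7.44 and 9.78 against 2.57 and 4.58; adjusted p = 0.039). Cd36, a scavenger receptor, fell in macrophages (6.07 and 5.15 against 0.75 and 1.55; -2.47 ± 0.37, adjusted p = 0.036) and monocyte-like cells (-1.503 ± 0.23, adjusted p = 0.042). Alcam, an adhesion molecule and S100 receptor, rose in CD8 T cells (1.67 and 1.20 against 4.66 and 4.53; 1.502 ± 0.24, adjusted p = 0.0041) and NK cells (2.06 ± 0.45, adjusted p = 0.049). Cd14, the co-receptor of Toll-like receptor 4, rose in CD4 T cells (0.01 and 0.17 against 0.59 and 1.24, edgeR adjusted p = 0.0085). There Cd14 passed the filter on low counts through the skin tumors, where it was higher. The summed neutrophil marker genes stood higher in the same cells (0.55 and 0.31 against 2.05 and 4.97 per 10000). Of these genes, Csf3r, Cxcr2 and Retnlg stood at 0.011 or less in CD4 T cells of the skin tumors. C1qa, a gene of the macrophage gate, was 0.06 and 0.10 against 0.22 and 0.29 there. The part of these transcripts in the Cd14 values was not tested.

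The intracellular partners gave 5 lower and 5 higher in 79 tests, with a median log2 fold change of -0.23. Over all genes and classes, 2.15% of tests were called lower and 2.06% higher. In cDC2 5.21% of genes were called lower and 3.7% higher, in cDC1 0.766% lower, and in Tregs 2.36% higher. Ahnak, the large scaffold that S100A10 and annexin A2 bind, fell in cDC2 (12.04 and 12.7 against 3.17 and 4.73; -1.88 ± 0.26, edgeR adjusted p = 0.012), cDC1 (-1.99 ± 0.29, adjusted p = 0.039) and CD8 T cells (-1.18 ± 0.32, adjusted p = 0.046). Anxa1, the partner of S100A11, fell in cDC2 (2.74 and 2.66 against 0.98 and 0.89, -1.76 ± 0.20, edgeR adjusted p = 0.0069). It also fell in CD8 T cells (0.32 and 0.44 against 0.03 and 0.09, edgeR adjusted p = 0.0044). There Anxa1 passed the filter on low counts through the control skins, where it was higher. Cacybp, the calcyclin-binding protein that takes its name from S100A6, rose in cDC2, CD8 T cells, CD4 T cells and Tregs, for example from 1.04 and 0.78 to 2.16 and 1.75 in CD8 T cells (0.93 ± 0.24, adjusted p = 0.039), where S100a6 itself fell. Anxa6 rose in cDC2 (1.07 ± 0.23, adjusted p = 0.036). The granule genes of neutrophils gave no call in 10 tests, 5 of them in neutrophils with a median log2 fold change of -1.42 beside 0.06 over all genes there.

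Over the 52 sums of a class and a library, S100a8 and S100a9 ran together (Pearson's r = 0.94 on log2 of CPM + 1), and S100a6 was closest to S100a11 (0.55) and S100a4 (0.46). These points share libraries and depth, so the values are descriptions. Among 8121 other genes, S100a8 was most like Il1f9 (0.94), Gm5483 (0.93) and Stfa2l1 (0.92), and S100a9 most like Il1f9 (0.92), Gm5483 (0.89) and Slc40a1 (0.89). S100a4 was most like Cytip (0.73), AY036118 (0.70) and Cdk8 (0.67), and S100a6 most like Myadm (0.63), Emp1 (0.62) and Klf9 (0.61). For S100a11 they were Lsp1 (0.78), Gnai2 (0.77) and Rala (0.77), for S100a10 Bag4 (0.63), Cbll1 (0.62) and Wdr74 (0.62), for S100a13 Mien1 (0.74), Sae1 (0.74) and Uqcrh (0.74), and for S100a1 Iqsec2 (0.75), Tcp11l1 (0.74) and Anxa4 (0.70).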

How the data were processed

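Cells from 2 control skins and 2 skin tumors were sorted as CD45+ DAPI- and captured with 10x Genomics 3' chemistry. The authors mapped reads to mm10 with Cell Ranger (7.1.0 per the labels, 7.0.1 per the file headers) and deposited UMI counts per gene and cell, not normalized. All other values were computed here with Python 3.11.15 and R 4.3.3.

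Cells with at least 1000 UMIs, at least 100 genes, at most 15% mitochondrial UMIs and a log10 ratio of genes to UMIs of at least 0.8 were kept. The study's own removal of doublets was not repeated. Instead, cells that met the gates of several lineages (174 to 351 per library) were left out, as were cells with keratinocyte or fibroblast markers, and no doublet caller was run. Classes were gated on marker genes; how many markers each gate asks for was set after marker UMIs had been seen. Examples are 3 neutrophil markers with Csf3r, at least 5 C1q UMIs for macrophages, and 2 Cd3 genes for T cells.

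UMIs were summed per class and library and tested with edgeR 4.0.16 (TMM, filterByExpr, quasi-likelihood, Benjamini-Hochberg over all genes of a class, threshold 0.05), 1 fit per class with at least 10 cells in every library. A second fit over all classes, with a common filter on low counts, tested each class's tumor change against that of macrophages. The study tested single cells, which are not replicates. SE is the log2 fold change divided by the square root of F. Shares carry exact (Clopper-Pearson) 95% intervals, which cover counting error only. On simulated counts, 66.0 to 87.5% of 200 genes changed by 2 on the log2 scale were recovered per class (2313 to 12155 genes), with 4.85 to 14.4% of calls false. Alternatives included DESeq2 1.42.0, other gates and filters, and leaving out each library.

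The members and gene lists were chosen with earlier results of these data known. All 8 members are named in every class, and the listed genes by count with values for those called. For each member the 3 genes of highest correlation are named (genes with a mean of at least 10 CPM computed here). A further allele of the tumor model is not reported here.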

Additional observations from a re-analysis of the deposited data

Results flagged for a closer look

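S100a8 and S100a9 in cDC2 differed from macrophages in their tumor change by the test of that difference (edgeR, all classes in 1 fit). The difference was -7.43 on the log2 scale for S100a8 (edgeR adjusted p = 0.023) and -6.85 for S100a9 (adjusted p = 0.041). In the main test of cDC2 neither gene passed the filter on low counts. In control skin 2 a single cDC2 held 23 of 25 S100a8 UMIs and 22 of 24 S100a9 UMIs, and in skin tumor 1 the macrophages with at least 10 S100a9 UMIs were 4 of 2067.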

How the results depend on the processing

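Pairs of a member and a class called lower in skin tumors numbered 7, and 5 to 25 when each library was left out in turn, with 25 reached without skin tumor 2. DESeq2 called 12 and the fit without a filter on low counts 24 of 80 pairs. Pairs called higher numbered 0, with 1 by DESeq2, 5 without the filter and 0 to 4 when each library was left out. Pairs whose tumor change differed from macrophages numbered 2, with 1 under DESeq2 size factors, 11 without the filter, 1 under the stricter gate, 0 under the looser gate, 0 without cells that had a neutrophil marker UMI (which leaves out 80.6% and 80.4% of the macrophages of the skin tumors), and, when each library was left out, 0 without control skin 1 or control skin 2, 5 without skin tumor 1 and 4 without skin tumor 2. Leaving out a library that leaves a group with 1 sample assumes that this sample varies like the other group. With the replicate number as a block, 13 pairs were called lower and 2 higher, and of the 7 calls that of S100a6 in NK cells was lost (adjusted p = 0.066); same-numbered libraries did not deviate together (r of -0.07 to 0.02 over the 10 classes), so the numbers do not pair the libraries, and the interaction fit has library as a term and no such block.

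Of 790 recomputed log2 fold changes, 670 kept their direction and side of the threshold, 73 gained a call, 20 lost one and 27 changed sign. The sign changes fell on 16 pairs, none with an absolute log2 fold change above 0.59. Under the stricter gate S100a1 in monocyte-like cells became -0.018, S100a11 there -0.14 and S100a13 in cDC2 0.023. Under the looser gate S100a11 became -0.0072 in monocyte-like cells and -0.012 in CD4 T cells, and S100a13 in neutrophils -0.047. Without cells that had a neutrophil marker UMI, S100a1 in macrophages became 0.038, and in CD4 T cells S100a11 became -0.56 and S100a13 -0.24. Without cycling cells S100a10 in monocyte-like cells became 0.096 and S100a13 in NK cells -0.19, and without the 5% of cells with most UMIs S100a10 in monocyte-like cells became 0.068. With each library left out, the ranges were -0.42 to 1.56 for S100a1 in NK cells, -0.85 to 0.39 for S100a4 in neutrophils, -2.11 to 0.31 for S100a6 in cDC1, -0.018 to 1.74 for S100a10 in neutrophils, -0.36 to 0.20 for S100a10 in monocyte-like cells, -0.67 to 0.35 for S100a10 in NK cells, -0.23 to 0.37 for S100a11 in monocyte-like cells, -2.06 to 0.23 for S100a11 in mast cells, -0.015 to 0.15 for S100a11 in CD4 T cells, -1.11 to 0.15 for S100a13 in mast cells and -0.078 to 0.34 for S100a13 in NK cells. The cause of these changes was not tested. Levels under 0.05 per 10000 rest on a few UMIs.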

Other observations

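Cells outside the 15 classes also carried the members. Cells with keratinocyte or fibroblast markers (64, 118, 35 and 58 in control skin 1, control skin 2, skin tumor 1 and skin tumor 2) had S100a6 at 11.6 and 12.1 per 10000 in control skins against 37.1 and 55.6 in skin tumors, the reverse of the order in most immune classes, and these values were not tested. S100a11 in these cells was 7.12 and 7.85 against 9.06 and 12.5, and S100a10 was 4.01 and 5.69 against 7.79 and 12.4. S100a8 and S100a9 stood at 0.78 per 10000 or less in them. Cells with no class, which had medians of 3802 to 4126 UMIs, had S100a4 at 12.5, 11.1, 5.41 and 19.0 in the same order of libraries.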
